A study of Homo sapiens with 12 samples.

Results

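Coding-sequence (CDS) peaks that touch a splice junction made up 3895 of the 18128 dSpCas9 eCLIP peaks in 4 lists, or 21.5%. A peak was counted where it overlapped, on the same strand, the CDS of the canonical transcript of a protein-coding gene (GENCODE version 44), overlapped neither the start nor the stop codon, and had its start or end within 2 nt of an internal exon border. The rule used positions alone and no enrichment value. The 3895 peaks lay in 1171 genes and were 44.9% of the 8673 CDS peaks without a start or stop codon. The other 4778 CDS peaks, with both ends farther from a junction, are called CDS peaks away from junctions here.

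The study asked which human RNAs Cas9 touches in cells that hold no guide RNA. It used eCLIP (enhanced cross-linking and immunoprecipitation), in which UV light joins a protein to the RNA it contacts, the protein is pulled down with an antibody and the attached RNA is sequenced. The tagged protein, dSpCas9, is the Cas9 of Streptococcus pyogenes without nuclease activity, and it was expressed from a transfected plasmid with a V5 or a 3xFLAG tag in Lenti-X 293T cells, a HEK 293T line derived from human embryonic kidney. The 12 libraries formed 6 groups of 2 biological replicates: for each antibody, an IP from cells with the tagged dSpCas9, a size-matched input of those cells (RNA of the same size range taken before any IP) and an IP with that antibody from cells with the empty vector. Per the sample labels, cells of all groups received 400 mJ/cm2 of UV light 2 times, where the study's methods name the dose without a repeat, and complexes of 115 kDa and larger were taken from the membrane. Overexpression from a plasmid in 1 cell line limits the model, and peak lists hold no expression values against which the cell line or the dSpCas9 level could be checked.

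Each peak carries a single log2 enrichment, which is the log2 of IP reads divided by control reads, averaged geometrically over both replicates, and a single −log10 p-value. The −log10 p has a ceiling of 400, and each list begins at a log2 enrichment of 3. The lists hold no read count and no value per replicate. The depth of the libraries is therefore unknown, no spread between replicates can be given for any peak, and comparisons below are descriptions of the lists without a test. For each antibody, 1 list gives the dSpCas9 IP over its size-matched input (called V5 or FLAG over input here) and another gives the same IP over the IP from empty vector cells (called over vector IP). The 2 lists of an antibody share their IP libraries. The input lists set the IP against RNA of the same cells, while the vector IP lists set it against RNA of other cells, and neither gives the level of an mRNA.

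Pre-mRNA splicing removes introns and joins the end of one exon to the start of the next, so bases that are far apart in the genome become neighbours in the mature mRNA. The spliceosome reads a donor at the intron's start and an acceptor at its end, and exons of coding genes often close with AG and open with G. Splicing also leaves an exon junction complex a short distance upstream of each junction, which the first translating ribosome removes. In genome coordinates, a read of spliced RNA breaks off at the border of one exon and continues at the border of the next.

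The exon sequences below show the junctions on which the strongest peaks fell and which are described in detail further on. Each line holds the last 15 coding-strand bases of the upstream exon followed directly by the first 15 of the downstream exon, as DNA letters 5′ to 3′ from hg38, and capitals mark bases inside a junction-touching V5 peak over input.
QPRT, exon 1 to exon 2: ccatggacgctgaagGCCTGGCGCTGCTGC
TMEM14C, exon 4 to exon 5: TTTGGGTTTTCCTAGCTACATCTggtacct
POMP, exon 1 to exon 2: gagctgcggaagatgAATGCCAGAGGACTT
POMP, exon 2 to exon 3: TCTTCTTCGGAAAggtttttcttgtgtgaa
RPLP0, exon 6 to exon 7: TCTCGCTTCCTGGAGGGTGTCCGCAATGTT
WDR1, exon 11 to exon 12: gtgtgcatTGGACAGATTGTCCTGCTGAAG
MARS1, exon 8 to exon 9: cgATGTCTTTGCCAGGTACTCTCGCCTCCG
RPS12, exon 3 to exon 4: caAAGCCTTAGACAAGCGCCAagcccatct
CDIP1, exon 5 to exon 6: CTGTTGCTTCATGGGATGTGATCTGGGCTG

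On hg38 the QPRT junction joins chr16 position 29679210 to 29694664 and the TMEM14C junction joins chr6 position 10726008 to 10728640, both on the plus strand. The POMP junctions join chr13 position 28659187 to 28662410 and 28662507 to 28664509 on the plus strand. The RPLP0 junction joins chr12 position 120198554 to 120197462 and the WDR1 junction joins chr4 position 10081357 to 10079001, both on the minus strand. The MARS1 junction joins chr12 position 57498273 to 57498420, and the RPS12 junction joins chr6 position 132815088 to 132816461, both on the plus strand. The CDIP1 junction joins chr16 position 4512791 to 4512683 on the minus strand. In RPLP0 and CDIP1 all 30 printed bases lay inside peaks, so peaks of the V5 list met at the junction from both exons. In QPRT and in the POMP junction from exon 1, capitals begin at the first base of the downstream exon.

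In V5 over input, 1295 of 6605 peaks (19.6%) in 717 genes touched a junction within the CDS. In V5 over vector IP, 731 of 3005 peaks (24.3%) in 413 genes did. FLAG over input had 1410 of 6554 (21.5%) in 752 genes, and FLAG over vector IP 459 of 1964 (23.4%) in 279 genes. The share of a list that touched coding junctions thus lay between 19.6% and 24.3%. The CDS of more than 1 gene was overlapped by 92 of the 3895 peaks.

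The rule itself largely sets how far a peak can reach past its border, since the touching end must lie within 2 nt of it. Of the 3895 peaks, 2697 (69.2%) lay wholly in exons, 18 had more than 2 bases outside exons and 6 had more than 4. No peak held UTR bases, which largely follows from leaving out peaks over a start or stop codon. The single peak that touched a border from the intron, with neither its 5′ end at an exon start nor its 3′ end at an exon end, lay in PTGES2, which encodes a prostaglandin E synthase. This FLAG peak over input covered chr9:128122850-128122936 on the minus strand, had 84 of its 87 nt outside the exon and a log2 enrichment of 3.13. It is not counted on either side below.

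Exon starts and exon ends were touched about equally often. Over all lists, 1924 peaks began at an exon start, 1849 finished at an exon end, and 121 touched a border at both ends. Among peaks with 1 touching end, the share at exon ends was 46.8% in V5 over input, 47.5% in V5 over vector IP, 52.3% in FLAG over input and 47.4% in FLAG over vector IP. The order of the sides moved with the threshold in the vector IP lists. In FLAG over vector IP the exon-end share was 52.2% with a log2 enrichment of at least 4 and 50.8% with ends on the exact border base, and in V5 over vector IP it was 53.9% with a −log10 p of at least 10. Median log2 enrichments at exon starts and exon ends were 3.56 and 3.54 in V5 over input, and 3.54 and 3.52 in FLAG.

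The rule admits 5 positions around each border, and more than 50% of the ends took exactly 1 of them. Of the 2045 peak 5′ ends at exon starts, 1088 (53.2%) fell on the first base of the exon. A further 566 fell 1 base before it, 90 fell 2 bases before it, 164 fell 1 base inside and 137 fell 2 bases inside. Of the 1970 peak 3′ ends at exon ends, 1135 (57.6%) fell on the last base of the exon and 485 (24.6%) fell 1 base past it. Another 66 fell 2 bases past it, 179 fell 1 base inside and 105 fell 2 bases inside. The off-by-1 ends were thus mostly on the intron side at both kinds of border. From 3 to 50 nt inside the exon, where the rule does not reach, a position held a median of 41 ends at both kinds of border, with a maximum of 133 near exon starts and 119 near exon ends.

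**Figure D1:**
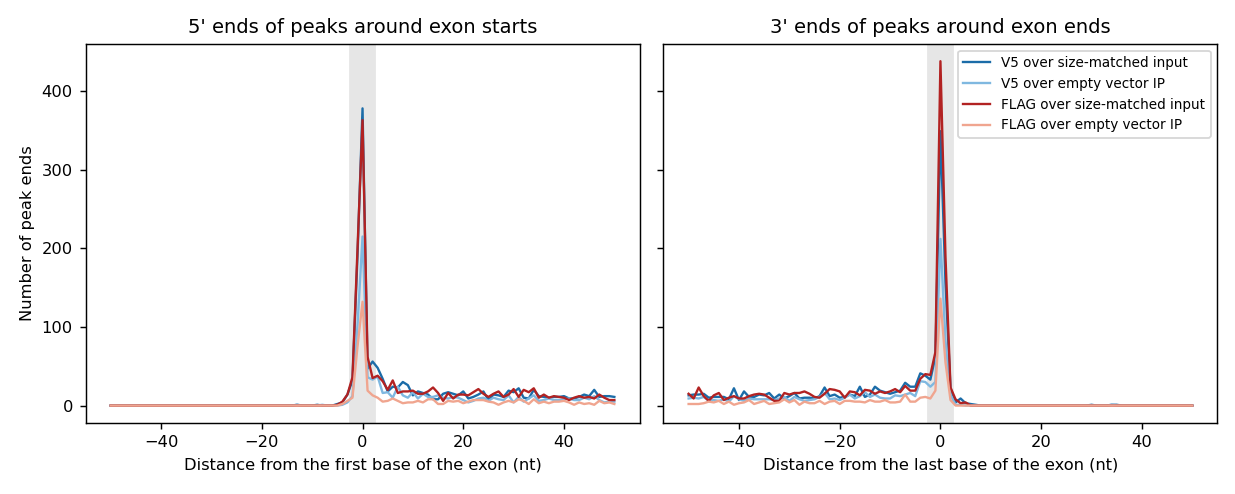
Number of peak ends (vertical axis) by distance in nt from the first base of an internal coding exon border (left, 5′ ends, with negative values in the intron) and from the last base (right, 3′ ends, with positive values in the intron), with 1 line for each of the 4 lists and the 2 nt of the rule shaded. Ends pile up on the border base itself, 378 and 349 of them in V5 over input, against medians of 13 and 14 per position from 3 to 50 nt inside the exon.

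The same concentration was present in each list. Ends on the first base of the exon were 53.8% of those at exon starts in V5 over input, 54.0% in V5 over vector IP, 52.2% in FLAG over input and 53.0% in FLAG over vector IP. Ends on the last base were 56.0%, 58.4%, 57.8% and 60.2% of those at exon ends in the same order.

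The 2 nt limit cut through a decline rather than a gap. There were 368 peaks whose nearest touching end lay at 2 nt, with a median log2 enrichment of 3.54 and a median length of 62 nt. The 277 CDS peaks whose nearest end lay at 3 nt, just outside the rule, had medians of 3.62 and 57 nt.

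Junction-touching peaks had median enrichments close to those of other peaks in their lists but were shorter. In V5 over input the median log2 enrichment was 3.55, against 3.57 in CDS peaks away from junctions and 3.61 in all peaks of the list. The same medians in FLAG over input were 3.53, 3.56 and 3.63. Over vector IP they were 3.61, 3.63 and 3.61 in V5 and 3.55, 3.55 and 3.59 in FLAG. The quartiles of the junction-touching V5 peaks over input were 3.26 and 3.96, so the differences between the medians were small beside the spread of the peaks. Every list is cut at a log2 enrichment of 3, and all these medians lie not far above that cut, which limits how far they could differ.

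A log2 enrichment of at least 5 was reached by 31 junction-touching V5 peaks over input (2.39%), against 4.48% of all peaks of the list. The FLAG list over input had 33 (2.34%), against 5.8% of all peaks. Over vector IP there were 33 in V5 (4.51%, against 4.29%) and 8 in FLAG (1.74%, against 4.12%). Among CDS peaks away from junctions the shares were 3.35% and 4.58% over input and 4.91% and 4.72% over vector IP, in V5 and FLAG. The p-value ceiling was reached by 56 V5 peaks over input (4.32%, against 4.13% of the list and 7.44% of its CDS peaks away from junctions) and by 64 FLAG peaks (4.54%, against 5.26% and 8.56%). The vector IP lists had it in 4 V5 peaks (0.547%, against 1.23% and 1.99%) and 18 FLAG peaks (3.92%, against 4.58% and 11.3%). In every list the ceiling was thus reached less often at junctions than in the CDS peaks away from them. Junction-touching peaks were also shorter, and these shares were not adjusted for length.

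Median lengths were 44 nt in V5 over input, 48 nt in V5 over vector IP, 43 nt in FLAG over input and 40 nt in FLAG over vector IP. CDS peaks away from junctions had medians of 72, 68, 68 and 66 nt in the same lists. The rule selects on where a peak ends, and in genome coordinates a stretch that runs across a junction is divided by the intron. Peak length is therefore not independent of the rule. Very short peaks of up to 5 nt were 6.33% of the junction-touching V5 peaks over input (82 peaks), against 0.795% of the CDS peaks away from junctions. For FLAG over input they were 6.52% (92 peaks) against 0.672%. Over vector IP the shares were 10.3% against 1.04% in V5 and 9.8% against 2.12% in FLAG. Many of these short peaks abutted another peak of the same list, with no base between them. This held for 69 of the 82 short V5 peaks over input, 63 of the 92 FLAG ones, 62 of the 75 V5 ones over vector IP and 31 of the 45 FLAG ones. Over all lengths, abutting another peak was less frequent at junctions, with 23.2% against 32.5% away from junctions in V5 over input and 25.5% against 35.0% in FLAG. The rule places at least 1 end of a junction-touching peak at a border with intron beyond it. That leaves fewer ends that can abut another peak, so the lower share is not independent of the rule.

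The sequence under junction-touching peaks held fewer G and C bases. Median GC content was 57.1% in V5 over input and 56.1% in FLAG, against 61.8% and 60.2% in CDS peaks away from junctions. The vector IP lists had 58.8% and 54.2%, against 61.8% and 58.2%. Part of an exon was usually covered. The exons had median lengths of 134 to 140 nt in the 4 lists, and a junction-touching peak covered a median of 30% of its exon in V5 over input and 28.9% in FLAG.

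Overlap with the second control and with the second antibody was next counted, each time beside the share over all peaks of the list. An overlap meant 1 nt or more on the same strand. Among the junction-touching V5 peaks over input, 499 (38.5%) overlapped one over vector IP, against 36% of all peaks of the list and 40.4% of the CDS peaks away from junctions. In FLAG, 407 (28.9%) overlapped a peak over vector IP, against 27.9% of all peaks and 24.6% away from junctions. These shares were near the background of their lists. Seen from the vector IP lists, 493 of the 731 V5 peaks (67.4%) overlapped a V5 peak over input, against 76.6% of that list. For FLAG this held for 401 of the 459 peaks (87.4%), against 90.5%.

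Between antibodies, the shares at junctions were below those of the whole lists, while beside CDS peaks away from junctions they were lower in FLAG and slightly higher in V5. A FLAG peak over input was overlapped by 657 of the junction-touching V5 peaks (50.7%), against 54% of all peaks of the list and 48.9% away from junctions. A V5 peak was overlapped by 680 of the FLAG peaks (48.2%), against 55.8% of the list and 54.5% away from junctions. Over vector IP, 178 V5 peaks (24.4%) overlapped a FLAG peak, against 30.6% of the list and 24.1% away from junctions, and 194 FLAG peaks (42.3%) overlapped a V5 peak, against 50.4% of the list and 59.2% away from junctions. Overlap with each of the other 3 lists was found for 160 V5 peaks over input (12.4%, against 13.4%) and for 168 FLAG peaks over input (11.9%, against 14.2%). The smaller vector IP lists had 155 V5 peaks (21.2%, against 28.7%) and 168 FLAG peaks (36.6%, against 46.6%). Shorter peaks have less length with which to overlap, and the shares were not adjusted for length.

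The junction-touching peaks of all lists were merged into 2348 loci where they overlapped on the same strand. Of these, 1394 loci (59.4%) came from 1 list, 557 from 2 lists, 261 from 3 lists and 136 (5.79%) from all 4 lists, in 87 genes. Only peaks that met the rule were merged, so a locus of 1 list can overlap peaks of other lists that did not meet it. The shares for loci of other peaks were not computed. Counted by exon border, 2455 borders of 1795 junctions were touched in at least 1 list, out of 17741 internal coding junctions in the same genes. In all 4 lists 137 borders (5.58%) were touched. When the lists were instead intersected step by step with 50% overlap, 749 intervals remained, of which 101 (13.5%) in 70 genes met the rule. The rule was applied to the ends of the shared bases, which can differ from the ends of the peaks. This share is therefore not comparable with those of the lists. The study took only the intersection of its 4 comparisons as its reproducible peaks. Its published set is smaller than the 749 intervals, so these intervals are not that set.

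At the exon borders that V5 and FLAG peaks over input both touched, the ends often fell on the same base. There were 572 such borders, 43.7% of the V5 borders and 39.8% of the FLAG borders, and at 347 (60.7%) of them both antibodies' peaks ended on the identical base. The rule admits few positions per border, most ends took the border base, and the peak nearest the border was used in each list. Ending on the same base is therefore made frequent by the rule, and its share for unrelated lists was not computed. The V5 and FLAG log2 enrichments at these borders had a Pearson's r of 0.453 and a Spearman's rho of 0.376, with a median absolute difference of 0.38. FLAG was higher at 264 of the 572 borders. The V5 and FLAG lists come from different libraries, but all sites of a list share its libraries, and neighbouring borders are not independent. V5 and FLAG over vector IP shared 164 borders (21.9% and 35.3% of their borders), with the same base at 60.4%, an r of 0.316 and FLAG higher at 50 of them.

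**Figure D2:**
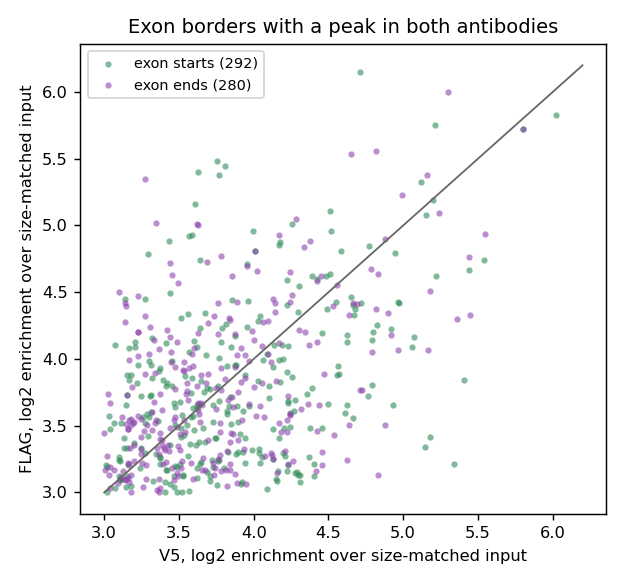
Log2 enrichment over input in V5 (horizontal axis) and FLAG (vertical axis) at the 572 internal coding exon borders touched by a peak of both antibodies, with exon starts in green, exon ends in purple and the line of equal values. The points scatter widely around the line (Pearson's r of 0.453), and no value lies below the log2 of 3 at which the authors' lists begin.

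A junction touched from both sides is a single continuous stretch in spliced mRNA. V5 over input held 332 such junctions among 977 touched (34.0%) and FLAG over input 392 among 1046 (37.5%). With vector IP as the control there were 172 among 578 (29.8%) in V5 and 118 among 347 (34.0%) in FLAG. Peaks on both sides in both input lists were found at 161 junctions in 134 genes.

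The enrichments on the 2 sides of such a junction were close. The median absolute difference in log2 enrichment between the end of the upstream exon and the start of the downstream exon was 0.23 in V5 and 0.25 in FLAG over input. Pairs of abutting peaks on the same stretch of genome, which lie side by side without an intron, differed by a median of 0.23 in both lists (467 and 517 pairs). With vector IP as the control the medians across junctions were 0.26 in V5 and 0.32 in FLAG, and those of abutting pairs 0.29 and 0.26. Peaks facing each other across an intron therefore differed about as much as peaks that adjoined in the genome. Both peaks of either kind of pair had to pass the lists' lower limit of 3, which narrows the differences that can arise. Differences between unrelated peaks of a list were not computed. Within 0.5 on the log2 scale lay 76.8% of the V5 junctions and 74.0% of the FLAG junctions over input. The upstream exon had the higher value at 156 of 332 V5 junctions and 205 of 392 FLAG junctions. The correlation across the junction was 0.606 over the 332 V5 junctions and 0.64 over the 392 FLAG junctions, and the paired values come from the same libraries. The values were identical on both sides, in log2 enrichment and −log10 p, at 5 V5 junctions and 8 FLAG junctions over input. The lists hold no reads, so how many reads ran across each junction is not known.

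**Figure D3:**
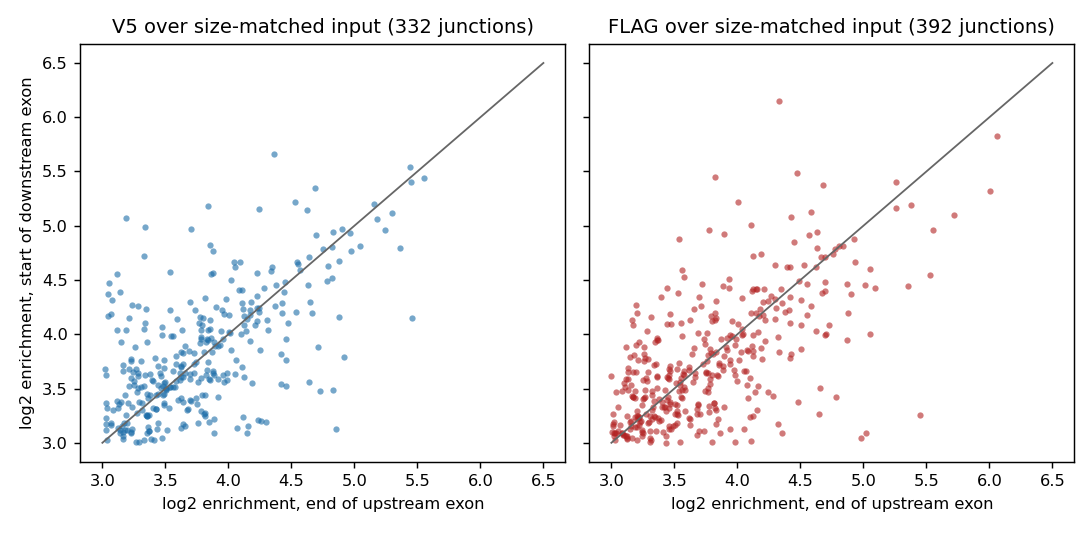
Log2 enrichment of the junction-touching peak at the start of the downstream exon (vertical axis) against that at the end of the upstream exon (horizontal axis) for every junction touched from both sides, in V5 (left, 332 junctions) and FLAG (right, 392 junctions) over input, with the line of equal values. Within 0.5 of the line on the log2 scale lie 76.8% of the V5 points and 74.0% of the FLAG points.

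The strongest junction touched from both sides in both input lists was that of TMEM14C, which encodes a mitochondrial inner membrane protein needed for heme synthesis. The end of exon 4 had a log2 enrichment of 5.30 in V5 over input, 6.12 in V5 over vector IP, 6.0 in FLAG over input and 4.21 in FLAG over vector IP. The start of exon 5 had 5.12, 5.64, 5.32 and 3.72 in the same order. The upstream side was the higher in every list, and FLAG over vector IP was the lowest on both sides. The exon 4 peaks ended on the last base of the exon (10726008) in FLAG and 1 base past it in V5, and the exon 5 peaks of all lists began on its first base, 10728640. Both V5 peaks at the exon start covered 8 nt and both FLAG peaks 29 nt.

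WDR1 encodes a cofactor of cofilin in actin filament disassembly. At its junction from exon 11 to exon 12, the end of exon 11 had 5.16 in V5 over input, 4.77 in V5 over vector IP, 5.38 in FLAG over input and 4.74 in FLAG over vector IP. The start of exon 12 had 5.20, 4.31, 5.19 and 3.96. The exon 11 peaks were only 7 nt (FLAG) and 8 nt (V5) long and shared their 5′ end, 10081363. The sides differed by less than 0.2 over input, and the upstream side was higher in both lists over vector IP.

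RPL8 and RPLP0 encode proteins of the large ribosomal subunit, RPLP0 being the base of its acidic stalk. RPL8 lies on the minus strand of chromosome 8. The end of its exon 2 (144791773) had 5.55 in V5 over input, 5.85 in V5 over vector IP, and, in the peak on the border base itself, 4.93 and 3.66 in the FLAG lists. The start of RPL8 exon 3 (144791495) had 5.44, 5.36, 4.66 and 3.51. For RPLP0, the end of exon 6 had 5.44, 5.41, 4.76 and 4.04, and the start of exon 7 had 5.54, 5.80, 4.74 and 4.32. Each V5 value of both genes lay above each FLAG value. Ribosomal protein genes have many processed pseudogenes, which lack introns, and how the authors' alignment placed reads between such copies is not given in the sources used here.

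MARS1 encodes the cytosolic methionyl-tRNA synthetase, which loads methionine onto its tRNA. The end of exon 8 had 4.82 in V5 over input, 5.14 in V5 over vector IP, 5.56 in FLAG over input and 4.36 in FLAG over vector IP. The start of exon 9 had 4.52, 5.61, 4.96 and 3.89. The lists disagree on the higher side here, since V5 over vector IP was higher at exon 9 and the others at exon 8. The exon 9 peak nearest the border, which gave these values, was 2 nt long in V5 and 3 nt in FLAG over input.

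Among the 136 loci found in all 4 lists, the 10 with the highest mean of the 4 values had means from 4.91 to 5.54. The first was the start of exon 2 of QPRT, which encodes quinolinate phosphoribosyltransferase, an enzyme of NAD synthesis from tryptophan. Its highest values were 6.02 in V5 over input, 4.72 in V5 over vector IP, 5.83 in FLAG over input and 5.58 in FLAG over vector IP. In V5 over input the border was covered by a 3 nt peak, chr16:29694663-29694665, and an abutting 31 nt peak of 5.74, chr16:29694666-29694696. In FLAG over input a single 5 nt peak met the rule there. On the other side of the same intron, the end of QPRT exon 1 (chr16:29679207-29679211, 5 nt) had 6.06 in FLAG over input and 5.65 in FLAG over vector IP. Peaks of both V5 lists overlapped these bases too but also covered the start codon, which the rule leaves out.

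POMP, which encodes the chaperone of proteasome assembly, was the locus with the highest enrichment that spanned an entire exon. Its exon 2 of 98 nt was covered by peaks of 5.80 in V5 over input, 4.33 in V5 over vector IP, 5.72 in FLAG over input and 4.97 in FLAG over vector IP. The FLAG peaks fitted the exon exactly, chr13:28662410-28662507, and the V5 peaks covered chr13:28662409-28662505, shifted 1 base into the intron and stopping 2 bases short of the end. The start of POMP exon 3 was touched in FLAG, with 5.10 over input and 3.75 over vector IP.

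RPS12, a protein of the small ribosomal subunit, was touched at the start of exon 4 with 4.95 in V5 over input, 5.41 in V5 over vector IP, 4.83 in FLAG over input and 4.58 in FLAG over vector IP. In FLAG over both controls this border was divided into a peak of 2 nt and an abutting peak of 27 nt, while V5 had a peak of 6 nt over both. The −log10 p of all RPS12 peaks here was at the ceiling of 400. The remaining loci of the 10 were both sides of the TMEM14C and RPLP0 junctions, the exon ends of RPL8, WDR1 and MARS1, all described above.

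**Figure D4:**
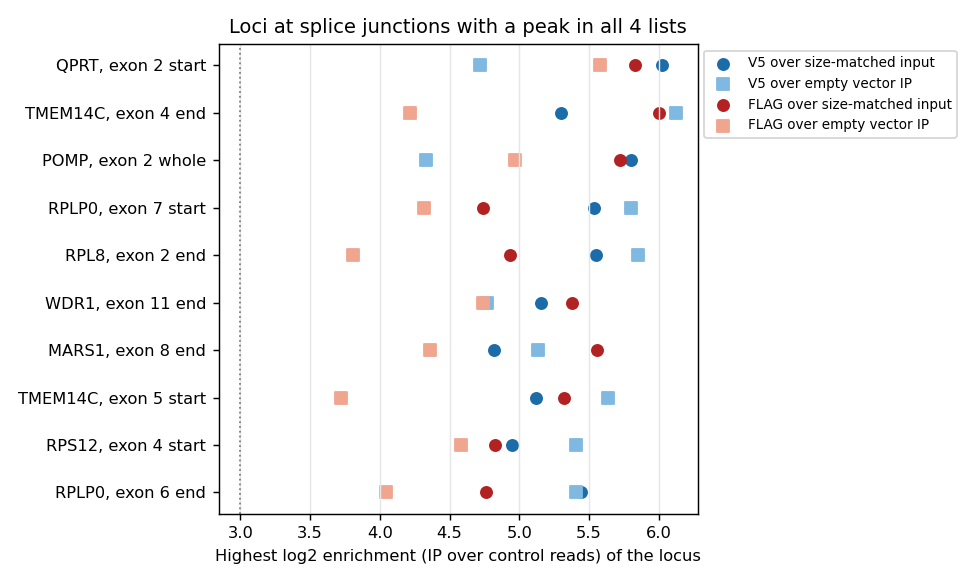
Highest log2 enrichment of junction-touching peaks (horizontal axis, with the lists' lower limit of 3 dotted) at the 10 loci with the highest mean over the 4 lists, with 1 point for each list (circles, over input; squares, over vector IP; blue, V5; red, FLAG). QPRT reaches 6.02 in V5 and 5.83 in FLAG over input, and FLAG over vector IP is the lowest of the 4 values at 8 of the 10 loci.

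Among CDIP1, ATF3, CDKN1A, ACTB and GAPDH, genes the study examined one by one, only CDIP1, a proapoptotic gene, had junction-touching CDS peaks. Each list had 2, at the end of exon 5 and the start of exon 6, which is the last exon. The end of exon 5 (chr16:4512791-4512806, 16 nt in every list) had 4.45 in V5 over input, 4.06 in V5 over vector IP, 4.62 in FLAG over input and 3.77 in FLAG over vector IP. The start of exon 6 had 4.48, 4.09, 4.62 and 3.77. Its 5′ end lay on the first base of the exon, 4512683, in all lists, and its length was 33 nt in V5 and 5 or 6 nt in FLAG. In FLAG the values on both sides were the same to the last deposited digit, with a −log10 p of 21.0 over input and 12.7 over vector IP on either side. ATF3 and CDKN1A are a stress-induced transcription factor and an inhibitor of cyclin-dependent kinases. They had 12 and 9 CDS peaks away from junctions and 0 at junctions, summed over the 4 lists, which can hold the same site. By the same count CDIP1 had 8 at junctions and 2 away from them. ACTB and GAPDH had 0 CDS peaks of either kind. The study describes its CDIP1 site in the 5′ UTR and its ATF3 peak in the 3′ UTR, both outside the CDS peaks counted here.

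The highest junction-touching peaks of each list often lay at a border that other lists shared. In V5 over input QPRT and POMP were followed by AHCY, the hydrolase that clears S-adenosylhomocysteine, with 5.66 in a peak of 7 nt at the start of exon 6, and by RPL8. The AHCY peak overlapped a V5 peak over vector IP and no FLAG peak. In V5 over vector IP SRM, the spermidine synthase, had 6.16 in a peak of 4 nt at the start of exon 6, and SRPRA, the alpha subunit of the signal recognition particle receptor, had 5.99 at the start of exon 10. TMEM14C was also among the 5 highest. In FLAG over input the start of exon 6 of SIK2, a salt-inducible kinase, was highest with 6.15, and it overlapped a peak of each other list. MUC16, a membrane mucin, had 5.75 at the start of exon 60 in a peak of 10 nt that overlapped a V5 peak over input but no peak over vector IP. In FLAG over vector IP UBAC2, a ubiquitin-associated protein of the endoplasmic reticulum, had 5.67 at the end of exon 6, and FBXW2, an F-box protein of a ubiquitin ligase, had 5.18 at the start of exon 8.

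A coding exon was counted as spanned whole where a peak had both ends within 2 nt of its borders. This held at 94 distinct exons, with lengths from 6 to 174 nt and a median of 82 nt. Only 2 of them, POMP exon 2 and COPA exon 26, were spanned over input in both antibodies. COPA encodes the alpha subunit of the COPI vesicle coat. Its exon 26 of 78 nt had 4.13 in V5 and 3.25 in FLAG over input and was not spanned in either list over vector IP. The shortest exon was exon 5 of AP2M1, the 6 nt microexon of a clathrin adaptor subunit, with 3.10 in FLAG over input. Its peak, chr3:184180646-184180650, did not cover every base of the exon.

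Junction-touching loci were spread thinly over most genes and densely over a few. Of the 1171 genes, 592 had 1 locus and 84 had at least 5. The largest number was 14, in CLTC, HUWE1 and ATP5F1A, and WDR1 had 11.

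CLTC encodes the clathrin heavy chain, and its 14 loci touched 8 of its 31 internal coding junctions. It had 10 peaks in V5 over input with a median log2 enrichment of 3.63 and 11 in FLAG with a median of 3.45, but only 2 and 3 over vector IP. Its highest values were 4.73 in V5, at the end of exon 10, and 4.42 in FLAG, at the start of exon 6. No CLTC locus was found in all 4 lists.

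HUWE1 encodes a large HECT ubiquitin ligase with 84 exons, and 8 of its 80 internal coding junctions were touched. There were 9 peaks in V5 over input (median 3.56) and 10 in FLAG (median 3.76), with 5 and 2 over vector IP. HUWE1 loci at the ends of exons 26 and 27 were found in all 4 lists. The end of exon 26 had 3.74 in V5 over input, 3.59 in V5 over vector IP, 4.32 in FLAG over input and 3.74 in FLAG over vector IP.

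ATP5F1A encodes the alpha subunit of mitochondrial ATP synthase, and 8 of its 11 internal coding junctions were touched. It had 12 peaks in V5 over input, 6 in FLAG, and 4 and 1 over vector IP. Its highest value in each list was at the end of exon 10, with 4.67 in V5 over input, 4.28 in V5 over vector IP, 4.42 in FLAG over input and 3.09 in FLAG over vector IP.

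WDR1 had 5 peaks in each V5 list, 10 in FLAG over input and 11 in FLAG over vector IP. Its medians were 4.99 in V5 over input, 4.59 in V5 over vector IP, 4.67 in FLAG over input and 4.39 in FLAG over vector IP, each above the medians of CLTC, HUWE1 and ATP5F1A in the same list.

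Functional groups were defined by gene symbol and counted beside the 2066 genes with a CDS peak, of which 1171 (56.7%) had a junction-touching one. Among the 1976 of these genes that have an internal coding junction at all, the share was 59.3%. The counts are not adjusted for the number of peaks, exons or reads of a gene.

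Ribosomal protein and translation factor genes had the largest shares among the groups with at least 20 genes. Of 44 cytoplasmic ribosomal protein genes with a CDS peak, 39 (88.6%) did, with 316 peaks at 129 loci, and 11 of these genes had a locus in all 4 lists. Their median log2 enrichment was 3.59 in V5 and 3.82 in FLAG over input. Besides RPL8, RPLP0 and RPS12, RPS20 stood high with 5.15 in V5 over input, 3.56 in V5 over vector IP, 5.08 in FLAG over input and 5.05 in FLAG over vector IP. Of 22 translation factor genes 20 (90.9%) had such a peak. EEF1G, a subunit of the elongation factor that recharges eEF1A with GTP, had 4.65, 4.90, 4.55 and 4.83 in the same order of lists. EEF2, the factor of ribosome translocation, had 4.25, 4.51 and 3.59 in the first 3 lists and no peak in FLAG over vector IP. EEF1A2 had 4.23, 4.41 and 3.85 in these lists, and EIF4G2, an initiation factor related to eIF4G, had 4.83, 3.02 and 3.13. Of 11 aminoacyl-tRNA synthetase genes 6 (54.5%) had one, led by MARS1 and followed by TARS1 with 3.70 in V5 and 4.55 in FLAG over input. CARS1 had 3.81 and 3.59, and SARS1 3.41 and 3.00.

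Among RNA processing genes, splicing factors and helicases were near the share of all genes. Of 18 splicing factor and hnRNP genes with a CDS peak and an internal coding junction, 10 (55.6%) had a junction-touching peak. SF3B3, a subunit of the U2 snRNP factor SF3B, had 3.83 in V5 and 5.48 in FLAG over input. HNRNPA1 had 4.54 and 3.48, SNRNP200, the helicase that unwinds U4 and U6 RNAs, had 3.74 and 3.82, and SNRPA, a protein of the U1 snRNP, had 3.51 and 3.44. Of 7 genes of the exon junction complex and nonsense-mediated decay 5 (71.4%) had one, but only SMG5, a decay factor, had it in both antibodies over input, with 3.88 and 3.14. Of 12 RNA helicase genes 6 (50%) had one, with DHX57 at 5.17 and 4.07, DDX50 at 3.78 and 3.52, and DDX56 at 3.38 and 3.35.

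Protein folding and turnover genes followed. Of 19 chaperone and chaperonin genes with an internal coding junction 16 (84.2%) had a junction-touching peak, among them CCT2 (4.88 in V5 and 3.51 in FLAG over input) and CCT4 (3.94 and 3.86), subunits of the chaperonin that folds actin and tubulin. BAG6, a chaperone of tail-anchored proteins, had 4.46 and 3.56. HSPG2 matched the symbol pattern of this group with 4.12 and 3.91 but encodes perlecan, a matrix proteoglycan. Of 11 proteasome genes 7 (63.6%) had one, with PSMD2 at 4.13 and 4.16, PSMA2 at 3.87 and 4.18, and PSMB4 at 4.19 and 3.66.

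Other groups lay on either side of the overall share. Of 40 solute carrier genes with an internal coding junction 23 (57.5%) had a junction-touching peak, led by SLC25A11, the mitochondrial oxoglutarate carrier, with 5.36 in V5 and 5.10 in FLAG over input. SLC11A2, an iron transporter, had 4.98 and 4.84, SLC7A2, a cationic amino acid transporter, had 4.66 and 4.40, and SLC25A3, the mitochondrial phosphate carrier, had 3.57 and 4.51. Of 26 replication and cell cycle genes 15 (57.7%) had one, including POLE, the catalytic subunit of DNA polymerase epsilon (3.56 and 4.92), the helicase subunits MCM5 (4.36 and 3.74) and MCM4 (4.23 and 3.69), and CDK4 (3.67 and 3.17). Of 5 tubulin and kinesin genes 3 did, with the motor genes KIF1A at 3.64 and 4.02 and KIF1C at 3.47 and 3.20. Zinc finger ZNF genes, which carry most of their coding sequence in 1 long last exon, had the lowest share, 9 of 33 (27.3%), and ZNF510 alone had a peak in both antibodies, with 4.15 in each. Of 26 histone genes with a CDS peak only 3 have an internal coding junction, and all 3 had a junction-touching peak. H3-3B, which encodes the replacement histone H3.3, had 3.27 and 3.03.

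The touched junctions were compared with the 15946 other internal coding junctions of the same genes in features that the rule did not use. Their place in the reading frame was alike, with 48.5% of the 1795 touched junctions between codons (phase 0) against 48.2%. Their place along the CDS was alike too, with a median of 50.6% of the way from start to stop against 49.3%. Introns had a median length of 999 nt against 1019 nt, and upstream exons 133 nt against 129 nt. The donor began with GT at 99.1% against 98.9%. The exon sequence differed more. The 15 bases on either side of the junction had a median GC content of 56.7% against 50%, and the dinucleotide GU (GT in DNA) was formed across the junction, by the last base of one exon and the first base of the next, at 11.9% against 8.04%. Among the 115 junctions touched in all 4 lists the GC median was 53.3% and the share with GU across the junction was 7.83%, no higher than at the untouched junctions. The upstream exon ended in AG at 52.9% of the touched junctions, 47.0% of those touched in all 4 lists and 56.5% of the others.

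The GU-loop:5nt-stem is a model of the guide RNA feature that Cas9 recognizes, a GU followed directly by 5 bases in a stem. It was called where the GU and the 5 bases lay inside the peak, the pairing probability was under 0.7 for the U and over 0.5 for each stem base, after folding with genomic flanks of 50 nt. In V5 over input 381 of 1295 junction-touching peaks (29.4%) held it, against 36.3% of the CDS peaks away from junctions. In FLAG over input 354 of 1410 (25.1%) held it, against 35.9%. Over vector IP the shares were 29.8% against 33.6% in V5 and 27.7% against 34.0% in FLAG. In every list the share was lower at junctions.

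Peak length moved with this difference. Among peaks of up to 24 nt the share was 5.84% at junctions and 5.66% away from them in V5 over input, and from 25 to 49 nt it was 19.8% and 19.5%. From 50 to 99 nt it was 47.3% at junctions against 38.8% away, and from 100 nt on 60.2% against 61.6%. In FLAG over input the 4 classes had 6.5%, 19.6%, 38.2% and 54.8% at junctions and 7.48%, 23.6%, 40.7% and 57.4% away from them. The share was thus higher at junctions in 3 of the 4 classes in V5 over input and lower in all 4 in FLAG over input. With vector IP as the control the classes had 2.87%, 23.2%, 45.3% and 56.7% at junctions in V5, against 4.94%, 17.9%, 39.6% and 58.7% away. FLAG over vector IP had 8.61%, 20.7%, 41.4% and 61.5%, against 3.95%, 27.2%, 37.6% and 56.7%. The direction within a class therefore differed between lists. In peaks of up to 24 nt at junctions, 50.1% (V5) and 52.2% (FLAG) held no GU at all.

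**Figure D5:**
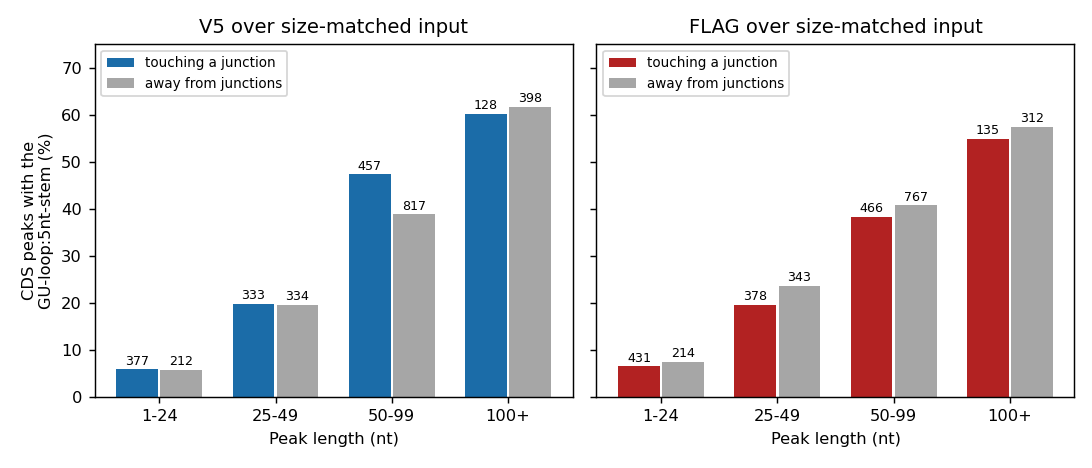
Share of CDS peaks with the GU-loop:5nt-stem in percent (vertical axis, from 0) by peak length in nt, for peaks touching a junction (coloured) and away from junctions (grey), in V5 (left) and FLAG (right) over input, with the number of peaks above each bar. The share rises with length in both kinds of peak, from 5.84% to 60.2% at junctions in V5 and from 6.5% to 54.8% in FLAG.

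At a junction the genomic flank is intron, which the mature mRNA lacks, so the peaks were also folded with 50 nt of spliced mRNA on either side. The total hardly moved, from 381 to 358 of the 1293 V5 peaks over input that could be folded both ways, and from 353 to 330 of 1407 FLAG peaks. Which peaks were called moved more. In V5 265 peaks were called both ways, 116 only with genomic and 93 only with spliced flanks, so that the call changed for 16.2% of the peaks, against 5.09% of the CDS peaks away from junctions. In FLAG the call changed for 15.8% against 6.01%. The vector IP lists changed for 13.7% against 5.76% in V5 and for 18.1% against 6.62% in FLAG. Junction-touching peaks with the model and without it had nearly the same median log2 enrichment, 3.54 and 3.55 in V5 and 3.49 and 3.53 in FLAG over input.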

How the data were processed

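RNA bound by V5- or 3xFLAG-tagged dSpCas9 was measured by eCLIP in 12 libraries of a HEK 293T line, and the sample labels gave each library its group and replicate number. The authors aligned reads to hg38 (GRCh38) with their eCLIP pipeline, and the submitters' processing notes name cutadapt 1.14, UMI-tools 1.0.0, STAR 2.4.0i and SAMtools 1.6. Replicates were merged by the Irreproducible Discovery Rate. For each peak the authors deposited a log2 enrichment (geometric mean of IP over control reads) and a −log10 p-value. The peak caller's version, its annotation and the scaling for library size are not given in the sources used here. Library depth is unknown, and enrichments are given without an interval.

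Peaks were classed on GENCODE version 44 (Ensembl 110) canonical transcripts, with positions 1-based. Lists were compared by overlap of at least 1 nt on the same strand, with bedtools 2.31.1 for the stepwise intersection. The GU-loop:5nt-stem was called with RNAplfold of ViennaRNA 2.7.2 (window and span 70, u = 1). Python 3.11.15, numpy 2.4.6, pandas 2.3.3, scipy 1.17.1 and pysam 0.24.0 were used, and figures were drawn with matplotlib 3.10.9. The computations were tested on simulated peaks with known answers.

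The peaks, gene lists and comparisons were chosen with earlier results of these data known. Named are the 10 loci in all 4 lists with the highest mean enrichment, the 5 genes with the most loci, and the 5 strongest junctions with peaks on both sides in both size-matched input lists. The study's CDIP1, ATF3, CDKN1A, ACTB and GAPDH and the 5 highest peaks per list are named too. So are up to 4 genes per gene list with peaks in both size-matched input lists, and the exons spanned in both within 2 nt of their borders. Some genes that this rule selects are not reported here. PTGES2 and AP2M1 were named after their values were seen. Gene lists were symbol patterns, such as RPL, RPS, EIF, EEF, SLC or ZNF with a number. Alternatives changed the distance from the border, merged abutting peaks first, raised the enrichment or p-value threshold, raised the overlap to 50%, or changed the folding model and its flanks. No test was run, because each peak has 1 value for both replicates.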

Additional observations from a re-analysis of the deposited data

How the results depend on the processing

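The alternatives gave 113 values for 23 results, of which 72 stayed close to the value reported and 41 moved. A move was a count changed by over 1.5 times or a median shifted by over 0.1 on the log2 scale. For a share, it was a value outside the reported share's 95% Wilson interval. That interval takes peaks as independent, which neighbouring peaks of a gene are not. It served only as a limit for a move and measures no spread between replicates. Values are given for V5 over size-matched input, V5 over the empty vector IP, FLAG over size-matched input and FLAG over the empty vector IP, in that order, where there are 4. Ends on the exact border base only left 720, 421, 794 and 266 peaks, and 150, 101, 165 and 65 junctions touched from both sides. With it, 41.4% of the V5 and 31.9% of the FLAG peaks over size-matched input overlapped a peak over the empty vector IP, and 51.1% of the FLAG peaks a V5 peak. A log2 enrichment of at least 4 left 307, 194, 327 and 95 peaks, and 72, 47, 80 and 16 such junctions. There the overlap with the empty vector IP lists was 31.6% (V5) and 19.9% (FLAG), that with the other antibody 35.8% and 38.2%, and the exon-end share in FLAG over the empty vector IP 52.2%. A −log10 p of at least 10 left 491, 181, 604 and 145 peaks, and 128, 52, 173 and 41 junctions, with overlaps of 32.6% and 23.3% with the empty vector IP lists, 60.7% of V5 peaks with FLAG, and an exon-end share of 53.9% in V5 over the empty vector IP. At least 50% of the peak covered by the other antibody held for 46.9% (V5) and 45.6% (FLAG). Merging abutting peaks first moved the difference in median log2 enrichment from CDS peaks away from junctions to 0.10 in V5 over the empty vector IP. The stricter folding model (U under 0.5, stem over 0.7) called 5.71% of the V5 and 4.4% of the FLAG peaks over size-matched input. Fewer peaks are left by construction under the first 3 alternatives, and the cause of the other moves was not tested. No paired analysis was possible because each peak has 1 value for both replicates, and for the same reason no replicate could be left out. Library depth, mRNA levels and reads across junctions are unknown, which limits every count.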
